A study of Bos taurus with 12 samples.

Results

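The genes described here were expressed in fertilised bovine embryos, lay near or below the limit of expression in cloned embryos, and stood higher in cloned embryos that overexpressed KDM5B. They were chosen from measured values, as loci with a mean of at least 5 FPKM in IVF embryos, under 1 in SCNT embryos and at least 1 in SCNT embryos with KDM5B. FPKM counts sequenced fragments per kilobase of a transcript, relative to all fragments mapped in that library. The rule found 315 of the 22445 loci in the deposited table. A reverse class was formed by exchanging the clone groups: at least 5 FPKM in IVF, under 1 with KDM5B and at least 1 without. It held 40 loci and served to show how many loci pass from one side of 1 FPKM to the other in the opposite direction.

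All samples came from Holstein cattle, in 4 groups of 3 libraries: fibroblasts of fetal origin, and 8-cell embryos in pools of 8, made by in vitro fertilisation (IVF), by somatic cell nuclear transfer (SCNT), or by SCNT with overexpression of KDM5B. SCNT places the nucleus of a body cell in an egg whose own nucleus was taken out. The labels do not say how KDM5B was overexpressed, whether the fibroblasts were the nuclear donors, or whether libraries of a group came from separate batches of embryos. The deposited table has 1 mean per group, so every value below is the authors' mean without an SD, no difference has a replicate check, and no test could be made. A mean of 3 libraries can be set by 1 of them, which could not be examined.

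Cattle embryos begin major transcription from their own genome at about the 8-cell stage, replacing RNA that the egg had stored. In cloned embryos the incoming nucleus must silence the genes of its former cell type and open those of the embryo, and part of the embryo's genes often stay low. KDM5B is a histone demethylase acting on methylated lysine 4 of histone H3, which marks the start sites of active genes. It is studied in cloning as a means of clearing that mark from genes of the former cell type.

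The table lists 17643 Ensembl gene IDs and 4802 loci under the authors' own IDs, without gene names. None of the IDs (0) matched the gene table used here, so gene functions, markers of embryo, oocyte, cumulus or fibroblast cells, and KDM5B itself were not analysed here, and the tissue labels and the overexpression could not be checked. Members are therefore described by level, locus type and fibroblast expression.

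The members were low in both clone groups. Their median was 7.19 FPKM in IVF (range 5.01 to 130), 0.717 in SCNT (0 to 0.997) and 1.60 with KDM5B (1.003 to 35.6). Most were not silent in SCNT: 242 of 315 stood at 0.5 FPKM or more there, 30 under 0.25 and 3 were listed at 0. With KDM5B, 225 members remained under 2 FPKM, 90 reached 2 and 3 reached 5. The typical member thus moved over a narrow range around 1 FPKM. The reverse class mirrored this, with a median of 7.59 FPKM in IVF, 1.45 in SCNT and 0.787 with KDM5B, and 9 of its 40 loci at 2 FPKM or more in SCNT.

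**Figure D1:**
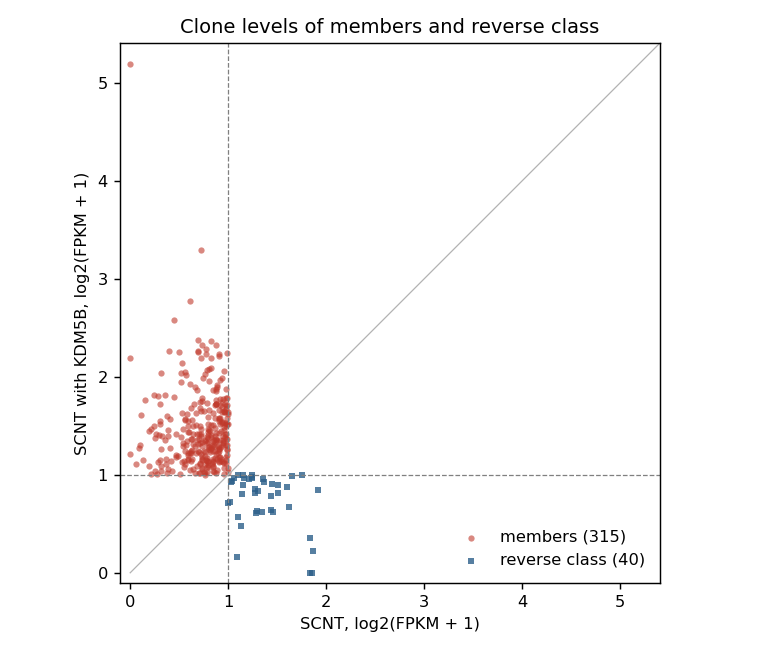
Each point is 1 locus, placed by log2(FPKM + 1) in SCNT embryos (horizontal axis) and in SCNT embryos with KDM5B (vertical axis). Red circles are the 315 members and blue squares the 40 loci of the reverse class; dashed lines mark 1 FPKM and the diagonal marks equal levels. Most points lie close to the corner at 1 FPKM, and 1 member listed at 0 in SCNT stands apart at 35.6 FPKM with KDM5B.

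The KDM5B mean reached a median of 20.8% of the IVF mean (quartiles 16.8% and 26.7%), against a median of 8.92% for the SCNT mean of the same loci. Of the 315 members, 14 were under 10% of IVF, 289 between 10% and 50%, and 12 at 50% or more. The rule bounds these shares from below, since a locus at 5 FPKM in IVF cannot be a member at less than 20% of that level. The median share was accordingly 24.4% in the 171 members at 5 to 7.5 FPKM in IVF, 19.2% in 76 at 7.5 to 10, 16.6% in 57 at 10 to 20, and 8.03% in the 11 above. The reverse class reached a closely similar share, a median of 19.0% of IVF in SCNT, and none (0) of its loci reached 50%. Across the 315 members Spearman's rho between IVF and KDM5B FPKM was 0.30, a description over loci of the same libraries, which are not replicates.

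**Figure D2:**
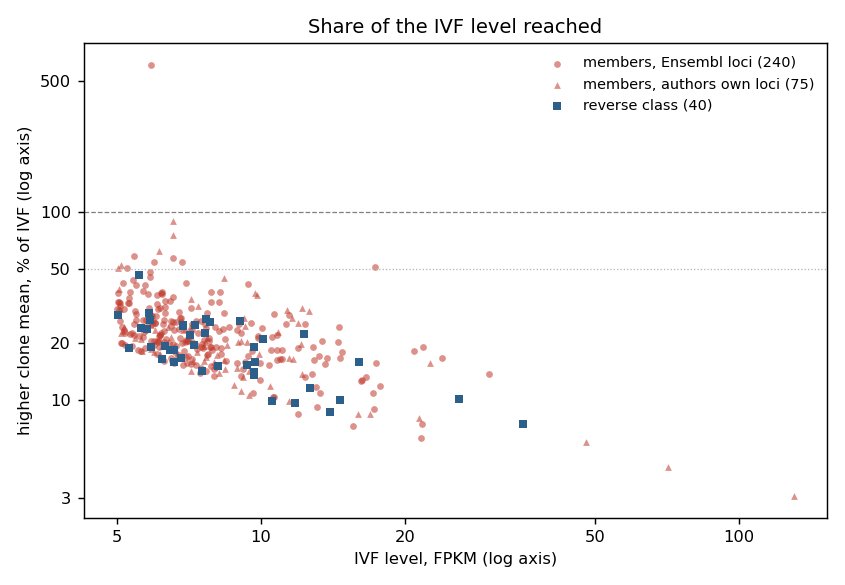
The horizontal axis gives the IVF mean in FPKM and the vertical axis the higher of the clone means as a percentage of it, both on log axes. Red circles are members with Ensembl IDs, red triangles members under the authors' own IDs and blue squares the reverse class; lines mark 50% and 100%. The lower edge falls with the IVF level because the rule asks for at least 1 FPKM, and 1 member lies above 100%.

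ENSBTAG00000040564.1 had the highest KDM5B value among the members. It was listed at 0 FPKM in fibroblasts, 5.88 in IVF, 0 in SCNT and 35.6 with KDM5B. It was the only member above its IVF level, at 606% of it, so the description as partly regained does not hold for this locus. ENSBTAG00000016855.4 came next, at 2.12 FPKM in fibroblasts, 17.3 in IVF, 0.647 in SCNT and 8.78 with KDM5B. That is a ratio of 13.6 between the clone groups, and 50.7% of IVF. The third member to reach 5 FPKM was one of the authors' own loci, listed at 0 in fibroblasts, 6.53 in IVF, 0.530 in SCNT and 5.84 with KDM5B, or 89.4% of IVF. A further locus of this kind had 6.55 FPKM in IVF, 0.360 in SCNT and 4.97 with KDM5B, or 75.8% of IVF. These 4 loci were the highest members with KDM5B, and 3 of them were listed at 0 in fibroblasts.

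The members highest in IVF remained far below that level. The loci above were chosen by their KDM5B level and these by their IVF level, so lower shares here follow from the choice. The 3 highest were all among the authors' own loci and listed at 0 in fibroblasts. The first was at 130 FPKM in IVF, with 0.663 in SCNT and 4.02 with KDM5B, or 3.08% of IVF. The second stood at 71.0, 0.437 and 3.12 FPKM in the same order, and the third at 47.9, 0.437 and 2.86. The highest Ensembl member by IVF level had 30.0 FPKM in IVF, 0.770 in SCNT and 4.14 with KDM5B, or 13.8%, and was also listed at 0 in fibroblasts. All 4 were about 5 to 7 times higher with KDM5B than in SCNT, with ratios of 6.06, 7.14, 6.55 and 5.38. They stayed under 5 FPKM. Ratios varied more widely among members lower in IVF, such as 1.65 at 21.6 FPKM in IVF and 12.3 at 21.4.

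In the reverse class, ENSBTAG00000026624.2 had the highest SCNT value. It stood at 3.08 FPKM in fibroblasts, 12.3 in IVF, 2.77 in SCNT and 0.793 with KDM5B. ENSBTAG00000010057.4 was listed at 0 FPKM in fibroblasts, 16.0 in IVF, 2.56 in SCNT and 0 with KDM5B. The highest IVF value of the class, in one of the authors' own loci, was 35.4 FPKM, with 2.65 in SCNT and 0.170 with KDM5B. No locus of the reverse class reached 3 FPKM in the higher clone group, whereas members extended to 35.6. The members are the larger set, where a higher maximum is more likely, and a single locus sets theirs, the next standing at 8.78. At 2 FPKM or more in the higher clone group were 9 of the 40 reverse loci and 90 of the 315 members.

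On the scale of log2(FPKM + 1) the median difference between KDM5B and SCNT was 0.66 over the members, -0.54 over the reverse class and 0.18 over the 14836 loci with at least 1 FPKM in an embryo group. At least 2-fold higher with KDM5B were 74 of 315 members (23.5%), against 6.46% of those 14836 loci, and nothing can be read from this because the rule used the same contrast. At least 2-fold lower were 5 of the 40 reverse loci (12.5%), against 1.81%. Against IVF, 298 members (94.6%) remained at least 2-fold lower with KDM5B, against 31.2% of the same 14836 loci. The rule also favours this, since it asks for a high IVF and a low SCNT level. The share was 43.6% of the 7464 loci at 5 FPKM or more in IVF. It was 96.4% of the 473 of these under 1 FPKM in SCNT. Those 473 are the members and the 158 loci under 1 in both clone groups. The limits place all 158 at least 2-fold lower, so nothing can be read from this comparison. Of the members that were not 2-fold lower, 16 were within 2-fold of IVF and 1 was higher. The size of the KDM5B to SCNT difference depends on the added constant, and was 1.17 with 0.1 and 0.22 with 5.

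Many members lay close to a limit of the rule. The 3 nearest to the SCNT limit stood at 0.997, 0.997 and 0.993 FPKM there, and the nearest loci outside it at 1.003. With KDM5B the 3 nearest inside were 1.003, 1.01 and 1.01 FPKM, and those just outside 0.997, 0.993 and 0.99. The lowest IVF values inside were 5.01, 5.02 and 5.03 FPKM, and the highest outside 4.95, 4.94 and 4.94. One of the members at 0.997 FPKM in SCNT stood at 1.04 with KDM5B.

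Passage across 1 FPKM was then counted for all loci, by their level in IVF. Under 1 FPKM in SCNT and at least 1 with KDM5B were 1345 of the 14836 loci (9.07%), and 486 passed the other way (3.28%). The imbalance depended on the scale. As TPM, 1333 loci passed upward and 520 downward, and with columns centred 1060 and 683. After quantile normalization 873 loci passed upward and 880 downward. With the KDM5B column divided by the median ratio of low loci, 821 and 849 did. Near balance on these latter scales follows from how they are built, so it is not a result. Quantile normalization gives the clone columns the same distribution, and the ratio was taken from loci around 1 FPKM. Of the loci under 1 in SCNT, the upward share was 66.6% for the 473 high in IVF (5 FPKM or more, 315 loci). It was 20.3% for 2597 at 1 to 5 FPKM in IVF (526 loci) and 6.21% for 8113 under 1 in IVF (504 loci). The loci high in IVF that passed are the 315 members themselves. Their share, and its split by SCNT level below, therefore describe the choice and are no independent count. Loci high in IVF also started nearer to 1, with a median SCNT value of 0.643 FPKM against 0.327 and 0.0367, so the shares were compared within ranges of the SCNT level. Between 0.5 and 0.75 FPKM in SCNT, 108 of 156 loci high in IVF passed 1 with KDM5B (69.2%), against 132 of 503 loci under 1 in IVF (26.2%). Between 0.25 and 0.5 FPKM the shares were 52.4% of 84 and 13.6% of 919, and up to 0.25 FPKM, without loci at 0, 46.7% of 60 and 2.21% of 3123. In each of the 5 ranges drawn in the plot of crossing shares, the loci high in IVF had the largest share, though only 10 of them were listed at 0 in SCNT, of which 3 passed.

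The same count was made in the reverse direction, where the loci high in IVF that passed are the 40 of the reverse class. Between 0.5 and 0.75 FPKM with KDM5B, 10 of 62 loci high in IVF were at 1 or more in SCNT (16.1%), against 75 of 493 loci under 1 in IVF (15.2%). Between 0.75 and 1 the shares were 26.1% of 88 and 26.6% of 383. Loci at 1 to 5 FPKM in IVF had lower shares than either, 7.51% of 519 and 19.5% of 379 in these ranges. The downward share there was thus not ordered by IVF level. At lower levels with KDM5B the loci high in IVF again had the larger share, over few loci: 3 of 25 loci against 7.60% of 961 between 0.25 and 0.5 FPKM, 16.7% of 12 against 0.821% of 4020 up to 0.25, and 18.2% of 11 against 0.732% of 2050 listed at 0. Up to 0.25 FPKM the ratio of the shares was thus wide in both directions. Within that range loci high in IVF also started higher than those under 1 in IVF. The medians were 0.17 against 0.07 FPKM in SCNT, and 0.128 against 0.07 with KDM5B. The part of regression to the mean in either count was not tested.

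**Figure D3:**
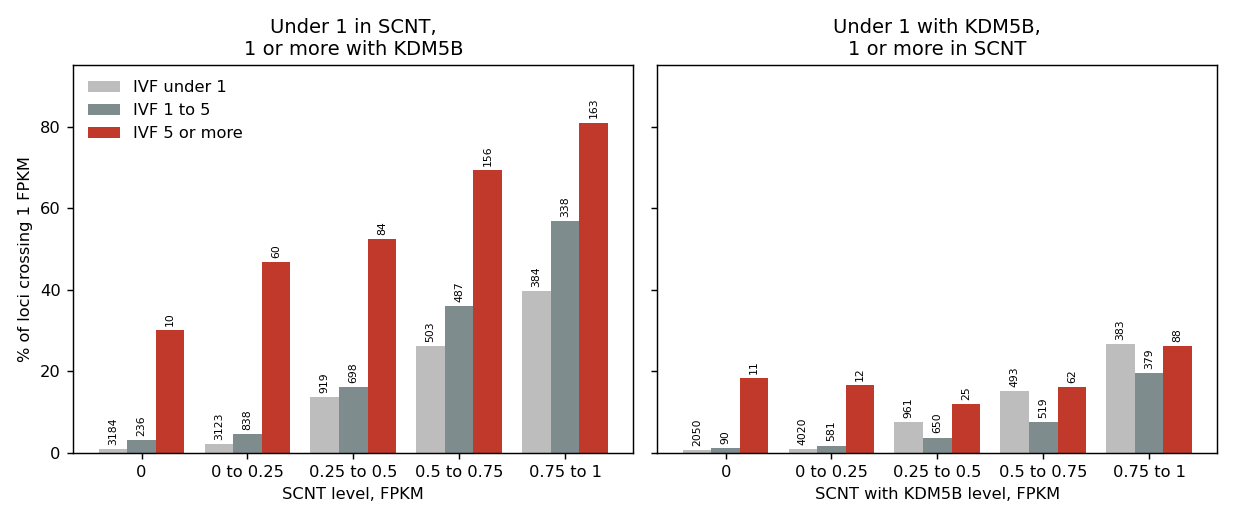
Bars give the percentage of loci under 1 FPKM in one clone group that were at 1 or more in the other, by the starting level (horizontal axis, FPKM) and by the IVF level (colours); numbers above bars are loci in each range. Left, loci under 1 in SCNT, where the 69.2% of loci at 5 FPKM or more in IVF stands beside 26.2% of loci under 1 in IVF at 0.5 to 0.75 FPKM; right, loci under 1 with KDM5B, where the same range gives 16.1% and 15.2%.

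Selection on a single clone column was avoided by taking loci whose mean of the clone columns lay between 0.5 and 2 FPKM, a range that holds 294 of the 315 members and all 40 of the reverse class. Of 790 such loci at 5 FPKM or more in IVF, 77.3% were higher with KDM5B than in SCNT. The share was 69.3% of 1780 loci at 1 to 5 FPKM in IVF and 60.5% of 1732 under 1, and the median log2 differences were 0.30, 0.21 and 0.14. Among the 790, members made up 294 of the 611 higher loci and the reverse class 40 of the 178 lower ones. The rule fixes the direction of both classes, so the comparison is no independent check of it. Of the loci under 1 in IVF, 485 of the 1048 higher and 281 of the 682 lower had likewise passed 1 FPKM. Within the Ensembl IDs the shares higher with KDM5B in the highest and lowest IVF range were 80.0% of 614 and 64.7% of 847. Within the authors' own loci they were 68.2% of 176 and 56.5% of 885. The gap for the authors' own loci lay at a clone mean of 0.5 to 1 FPKM (85.2% of 61 against 53.9% of 460) and was absent from 1 to 2 FPKM (59.1% of 115 against 59.3% of 425).

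The share depended on the scale of the columns, while the gap between the IVF ranges moved little. Loci at 1 FPKM or more in both clone groups had a median ratio of 1.15 between KDM5B and SCNT, and loci with a clone mean of 0.5 to 2 a median ratio of 1.33. Dividing the KDM5B column by 1.33, an alternative chosen after the data were seen, left 58.1% of the loci high in IVF and 42.4% of those under 1 in IVF higher with KDM5B. On that scale members numbered 228 and reverse loci 112, a ratio of 2.04, against 7.88 as deposited. The share passing upward was then 48.2% of loci high in IVF and 3.51% of those under 1 in IVF, and the share passing downward 31.4% (20.2% as deposited) and 5.44% (3.77% as deposited). Quantile normalization gave 156 and 60 loci, a ratio of 2.60. Over the deposited values and 4 other scales the gap between the highest and lowest IVF range was 15.7 to 17.2 percentage points. Each scale changes a clone column without regard to the IVF level of a locus. TPM, centring and quantile normalization also change the IVF column, so the loci in each range differ. The highest range held 790 loci as deposited, 983 as TPM, 618 centred and 576 after quantile normalization. How far the gap could have changed was not tested, and its steadiness is no check of it. What set the difference between the scales of the clone columns was not tested.

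**Figure D4:**
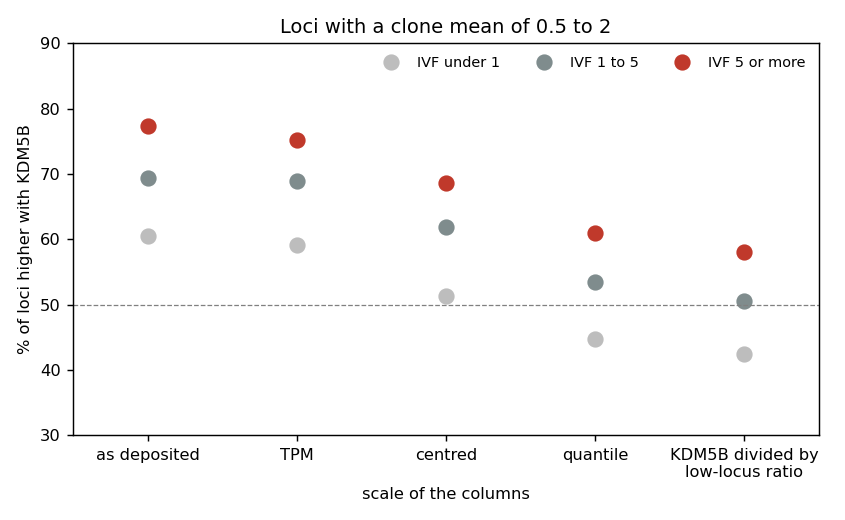
The vertical axis gives the percentage of loci with a clone mean of 0.5 to 2 FPKM that were higher with KDM5B than in SCNT, for each scale of the columns (horizontal axis) and IVF range (colours); the axis starts at 30 and the dashed line marks 50%. Points move down together from the deposited values (77.3% and 60.5% for the highest and lowest range) to the last scale (58.1% and 42.4%), with the order of the ranges kept on each of the 5 scales. No scale treats a locus by its own IVF level, so the kept order is no check of it.

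The fibroblast column took no part in the choice of members. Fibroblast levels ranged from 0 to 242 FPKM with a median of 0.397. Under 1 FPKM in fibroblasts were 173 of 315 members (54.9%), 85 of them listed at 0, while 58 lay between 1 and 5 FPKM and 84 (26.7%) at 5 or more. The share under 1 was 48.2% over all 22445 loci and 20.6% over the 7464 at 5 FPKM or more in IVF. Members thus lay between the 6951 loci at 1 FPKM or more in both clone groups, of which 17.6% were under 1 in fibroblasts, and the 158 loci under 1 in both clone groups, of which 75.3% were. The reverse class, with 28 of 40 (70.0%), was nearer to the latter, as were the members. It held a larger share of the authors' own loci than the members did, so shares within Ensembl IDs are given below. On the scale of log2(FPKM + 1), 217 members (68.9%) were at least 2-fold lower in fibroblasts than in IVF. That compares with 40.9% of 15634 loci at 1 FPKM or more in either group. At least 2-fold higher were 42 members (13.3%, against 35.6%). Both comparisons use the IVF column that chose the members; over all 7464 loci at 5 FPKM or more in IVF the shares were 57.4% and 14.8%.

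These classes also differed in locus type. Loci under the authors' own IDs were 75 of the 315 members (23.8%), 17 of the 40 reverse loci (42.5%), 70 of the 158 loci under 1 in both clone groups (44.3%) and 516 of the 6951 at 1 or more in both (7.42%). Of the 75, 73 were under 1 FPKM in fibroblasts and 48 were listed at 0, with a highest value of 1.52. Of the 240 Ensembl members, 100 (41.7%) were under 1 FPKM in fibroblasts, 56 between 1 and 5 and 84 (35.0%) at 5 or more. The share of Ensembl loci under 1 was 47.8% in the reverse class, 55.7% in the class under 1 in both clone groups and 13.9% in the class at 1 or more in both. Among Ensembl loci at 5 to 10 FPKM in IVF, which sets the classes at more similar IVF levels, these shares were 37.7% of 191 members, 44.4% of 18 reverse loci, 55.3% of 85 and 14.7% of 1383.

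**Figure D5:**
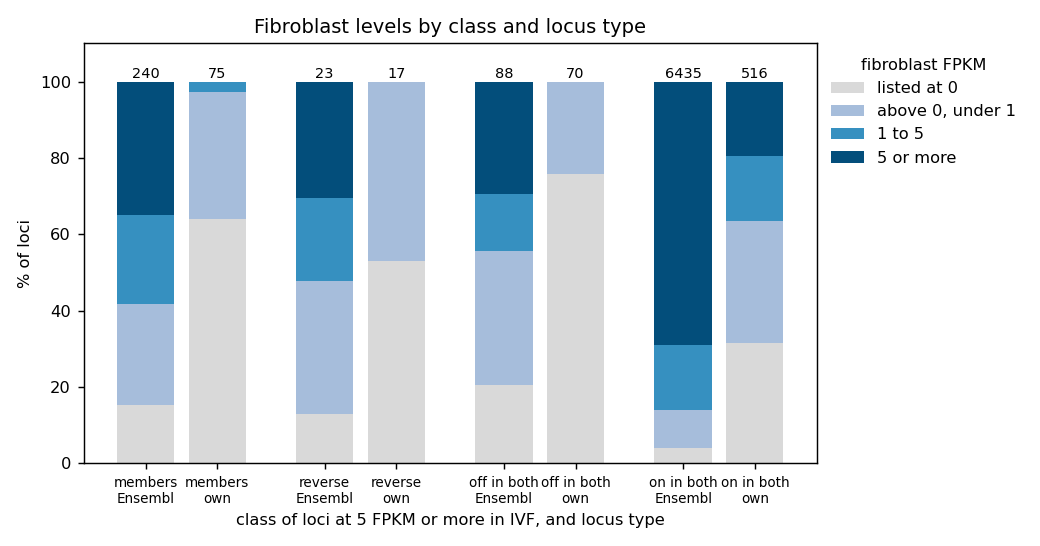
Stacked bars divide the loci of each class at 5 FPKM or more in IVF by their fibroblast level, separately for Ensembl IDs and the authors' own loci; "off in both" is under 1 FPKM in both clone groups, "on in both" at least 1 in both, and numbers above bars are loci. Of Ensembl members 41.7% were under 1 FPKM in fibroblasts, against 13.9% of the Ensembl loci on in both clone groups, and 73 of the 75 members under the authors' own IDs were under 1.

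The authors' own loci among the members also differed in embryo level. Their median was 8.17 FPKM in IVF, 0.540 in SCNT and 1.56 with KDM5B, against 7.01, 0.733 and 1.60 for Ensembl members. On the scale of log2(FPKM + 1), which understates differences of low loci, 32 of the 75 (42.7%) were at least 2-fold higher with KDM5B. So were 42 of the 240 Ensembl members (17.5%), and the rule used this contrast. Over all loci at 5 FPKM or more in IVF the shares were 13.6% for the authors' own and 6.60% for Ensembl IDs. They included 5 of the 12 members at 50% or more of IVF and 7 of the 14 under 10%.

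The 473 loci high in IVF and under 1 FPKM in SCNT were also divided by their fibroblast level. With KDM5B, 142 of the 181 with a fibroblast mean of at least 1 FPKM reached 1 (78.5%), against 173 of the 292 below it (59.2%), and 54.5% of the 156 listed at 0. The loci expressed in fibroblasts also started higher, with a median SCNT value of 0.733 FPKM against 0.582. Within Ensembl IDs the shares were 78.2% of 179 and 67.1% of 149, with medians of 0.733 and 0.667 FPKM in SCNT. The part of the starting level in this difference was not tested. In the reverse direction the shares were 23.5% of 51 loci and 19.0% of 147.

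The median share of IVF reached was 23.4% in the 84 members at 5 FPKM or more in fibroblasts and 19.6% in the 85 listed at 0 there, with median KDM5B values of 1.58 and 1.70 FPKM. Their median IVF levels differed, at 6.74 and 8.40 FPKM, and the rule lets lower shares in at higher IVF levels, so these medians are not like for like. Of the 315 members, 69 were higher in fibroblasts than in IVF and 12 reached 50 FPKM in fibroblasts. Of all 7464 loci at 5 FPKM or more in IVF, 2016 and 1041 did so, which are larger shares than among the members. Those loci had a higher median in IVF, 19.9 FPKM against 7.19, so the shares are not like for like. The highest member stood at 242 FPKM in fibroblasts, 7.68 in IVF, 0.730 in SCNT and 1.86 with KDM5B. The second stood at 242, 8.36, 0.930 and 2.41 FPKM in the same order, and the third at 223, 6.76, 0.790 and 1.84. Their order among the groups follows from the rule and from their choice by fibroblast level.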

How the data were processed

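The authors deposited FPKM in 1 table, with a single column for each group. The values show that a column averages 3 libraries: multiplied by 3, 100% of fibroblast entries and 99.9955% of those in each embryo column are whole steps of 0.01, within a tolerance of 0.001 of a step. Per the submitters' processing notes, the tools included RSEM 1.2.12, Bowtie2 2.2.5, HISAT 0.1.6, StringTie 1.0.4 and bcl2fastq 2.16, and the build was UMD3.1; the role of each, the annotation and filters are not stated there. Embryo cDNA was amplified, per the labels' protocols. The design text names different instruments for fibroblasts and embryos, the protocol text the same one; under the former, cell type and instrument cannot be told apart. Depth is unknown. The table used for names has 37063 entries and 0 Ensembl IDs.

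Groups came from the sample titles. Loci were classified on FPKM as deposited, differences were taken on log2(FPKM + 1), which understates those of low loci, and loci count as apart at 2-fold. Members and comparisons were chosen with earlier results of these data known. The rule for naming loci took the extremes in each column and those nearest a limit. Since IDs have no names, only 2 members and 2 reverse loci are given by ID, and the fixed gene lists were not used. Scales tried were a column sum of 1000000 (TPM), centring on the median ratio to the geometric mean over 9324 loci at 1 FPKM or more in all embryo groups, quantile normalization, and the ratio of low loci. The classification was tested on simulated data. Python 3.11.15, numpy 2.4.6, pandas 2.3.3 and matplotlib 3.10.9 were used.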

Additional observations from a re-analysis of the deposited data

How the results depend on the processing

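Values were called moved where they changed by more than 1.5 times. Members numbered 207 with embryo columns centred, 156 after quantile normalization, 117 with a limit of 0.5 FPKM between off and on, 68 with at least 10 FPKM in IVF and 90 with at least 2 FPKM in the higher clone group. The reverse class numbered 14 with the limit of 0.5, 81 with a limit of 2, 10 with at least 10 FPKM in IVF, 9 with at least 2 FPKM in the higher clone group, 23 in Ensembl IDs, and 112 with the KDM5B column divided by the ratio of low loci, an alternative chosen after seeing the data. Members outnumbered the reverse class under each of these, by 2.04 to 10.4 times. All loci found with columns centred (207) and after quantile normalization (156) were among the 315 members. For centring this was fixed in advance, since its factors made each limit of the rule stricter. As TPM the rule found 364 loci, and 251 of these were among the 315, so membership depended on the scale. The median log2 difference between KDM5B and SCNT over the members was 1.17 with an added constant of 0.1 and 0.22 with 5, by the construction of that scale. Of 30 alternative values, 17 stayed within 1.5 times and 13 moved. No sign change was possible, since counts and percentages have no sign and the rule fixes that of the log2 difference. For the other values the cause of the moves was not tested. No paired analysis was possible because each group has a single averaged column; leaving out each library was not run for the same reason. Without library values or depth, a passage across 1 FPKM cannot be set against the spread between replicates.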
